A study of Canis lupus familiaris with 33 samples.

Results

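The genes at the IGF1 and IGF1R loci were followed through canine oligodendroglioma and healthy dog brain, 2 of the 30951 genes in the deposited count table. They were found by position, because the table gives Ensembl identifiers without names: the gene whose span holds position 41221438 of chromosome 15 was taken as IGF1, and the gene whose span holds position 41849479 of chromosome 3 as IGF1R. Each position fell inside 1 annotated gene only. The series comprises 33 RNA libraries from 25 dogs, all from brain taken at necropsy 1 to 18 hours after death, and asks how the tumour differs from healthy brain and how formalin-fixed paraffin-embedded (FFPE) tissue compares with fresh-frozen tissue.

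FFPE oligodendroglioma was represented by 11 dogs (4 Boxers, 6 French Bulldogs and 1 Pomerian, 9 tumours of grade III and 2 of grade II), with stated ages of 4.7 to 12 years in 9 of them. FFPE control brain came from 10 dogs (4 Boxers, 5 French Bulldogs and 1 Bolonka Swetna), with stated ages of 2 to 8 years in 5. Fresh-frozen oligodendroglioma came from 6 dogs (3 French Bulldogs, 1 Boxer, 1 Border Terrier and 1 Pomerian, 5 of grade III and 1 of grade II), 5 of them with ages of 4.7 to 10 years. Fresh-frozen control brain came from 6 dogs (2 French Bulldogs, 1 Bolonka Swetna, 1 Hovawart, 1 Mongrel and 1 Berner sennenhund), 5 of them with ages of 2.8 to 10.2 years. Tumours were compared with brain of other dogs, so no tumour has a control from its own animal, and 8 dogs (5 with tumour, 3 controls) gave a library of each preservation. The FFPE and fresh-frozen comparisons therefore share animals and are not independent of each other. Total counts ran from 406406 to 32584840 in FFPE libraries and from 9765907 to 26726025 in fresh-frozen ones, and 3 FFPE libraries held at most 1752162 counts. Tissue identity and cell composition could not be checked against marker lists here, since the files do not pair identifiers with names.

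IGF1 is insulin-like growth factor 1, a secreted growth factor made in the liver under growth hormone and locally in tissues, brain included. It binds IGF1R, a receptor tyrosine kinase at the cell surface that signals through the PI3K/AKT and RAS/MAPK pathways. In the brain the pair is known for its part in neuronal growth, in the survival of oligodendrocyte lineage cells and in myelination, and in dogs both loci are known for variants associated with body size.

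On CanFam3.1 the IGF1 gene (ENSCAFG00000007304) lies on the minus strand of chromosome 15 from 41202518 to 41275794. Its span of 73277 bp holds 7 merged exons with 2724 exonic bp. The position that defined it falls in an intron, the longest of the gene at 51455 bp. The IGF1R gene (ENSCAFG00000010881) lies on the plus strand of chromosome 3 from 41794623 to 42090387, a span of 295765 bp with 23 merged exons and 5201 exonic bp. Its defining position falls in exon 3 of the merged exons, and the longest intron is 176770 bp. The exon number is close to the 21 exons usual for IGF1R. RefSeq places IGF1 and IGF1R on the same chromosomes of another dog assembly (UU_Cfam_GSD_1.0), with spans of 72396 and 302025 bp. No other annotated gene overlaps either span on either strand, so their fragments did not compete with an overlapping or antisense gene in the counting.

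IGF1, the ligand, was lower in tumour than in control brain in both preservations, at 0.414 of the control level in FFPE and 0.369 in fresh-frozen tissue. Levels are counts relative to library size (CPM), with library sizes scaled by the trimmed mean of M-values (TMM). In FFPE controls the lowest, median and highest values were 1.12, 8.97 and 14.8 CPM (n = 10). In FFPE tumours they were 0.382, 2.83 and 7.47 CPM (n = 11). All 11 tumours lay below the control median and 6 of 10 controls lay above every tumour, but the groups overlapped: 3 of 11 tumours were below every control. The lowest control, from dog 45726, had 3 fragments on IGF1, and the lowest tumour, from dog 50416, had 1. A count of 1 is compatible with 0.0253 to 5.57 fragments (exact 95% Poisson interval, counting error only), so the low end of the FFPE range was poorly resolved. So was the high end: the highest control, from dog 50315, had 5 fragments in a library of 406406 counts. Its exact 95% Poisson interval was 4.80 to 34.5 CPM, which reaches below the highest tumour.

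The log2 fold change of IGF1 in FFPE tissue was -1.27 ± 0.45 (SE; 95% interval -2.19 to -0.35; 0.414 of control), with an adjusted p of 0.0433 in edgeR's quasi-likelihood test (Benjamini-Hochberg over all genes). In that comparison 21.1% of 13338 genes tested passed the adjusted p threshold of 0.05, 11.1% lower and 10.1% higher, so a call of lower was common. Of all genes tested, 12.5% had a larger change in absolute log2 terms. The call was close to the threshold: it was kept in 8 of 21 fits that each left out 1 library, with adjusted p from 0.0255 to 0.0766. It was lost without any of the controls 47198, 50276, 50315, 60126, 60460 or 60462, or any of the tumours 43917, 44331, 50416, 51234, 60177, 60679 or 60749. Without the 3 shallowest libraries (at most 1752162 counts each) the change was -0.98 with an adjusted p of 0.132.

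Fresh-frozen libraries, which were deeper, gave IGF1 65 to 254 fragments in controls and 17 to 127 in tumours. The controls had a lowest, median and highest level of 3.33, 6.36 and 10.4 CPM (n = 6). The tumours had 0.855, 1.78 and 5.39 CPM (n = 6). The groups overlapped: 5 of 6 tumours lay below every control, and 3 of 6 controls lay above every tumour. The tumour within the control range was that of dog 60636, a French Bulldog with a grade III tumour at 5.39 CPM, above controls 60460 (3.33 CPM), 60459 (4.50 CPM) and 60629 (4.92 CPM). Tumour 60127, at 3.04 CPM (exact 95% Poisson interval 2.37 to 3.84), was just below the lowest control. The highest control, at 10.4 CPM, was from dog 60126. The log2 fold change was -1.44 ± 0.45 (SE; 95% interval -2.40 to -0.47; 0.369 of control), adjusted p = 0.0286. Here 30.5% of 15057 genes tested were called, 12.2% lower and 18.3% higher, and 18.4% had a larger absolute change. Leaving out 1 library at a time gave -1.91 to -1.25. The adjusted p rose above the threshold without control 60126 (0.0646) or 60462 (0.0521), or without tumour 60631 (0.0546) or 60749 (0.0539). In bulk tissue, fewer cells that make a transcript and less transcript per cell cannot be told apart.

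**Figure D1:**
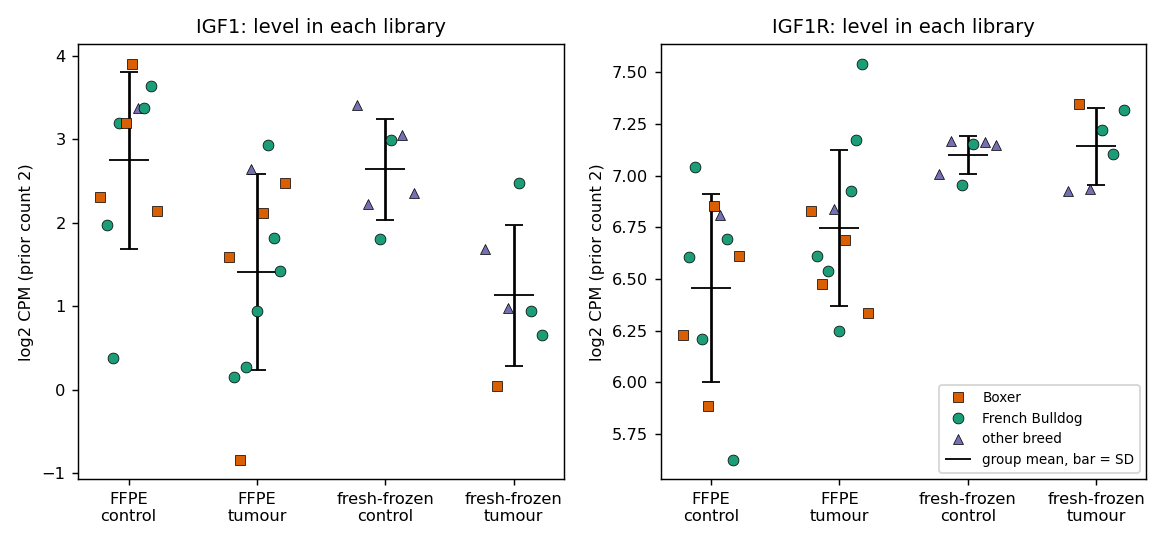
Log2 CPM (TMM scaling, prior count 2) of IGF1 (left) and IGF1R (right) in every library by group; each point is a library, its shape and colour give the breed, the horizontal line is the group mean and the bar its SD. IGF1 means are lower in tumours (1.41 against 2.75 in FFPE, 1.13 against 2.64 in fresh-frozen tissue), whereas the IGF1R points of tumour and control overlap within each preservation.

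IGF1R, the receptor, showed no called difference between tumour and control. FFPE controls had a lowest, median and highest level of 49.2, 97.4 and 132 CPM (n = 10), and FFPE tumours 75.9, 103 and 186 CPM (n = 11). The ranges overlapped over most of their length, with 2 of 11 tumours above every control. The log2 fold change was 0.19 ± 0.20 (SE; 95% interval -0.22 to 0.61; adjusted p = 0.513), and its sign turned without the 8 dogs that have both preservations (-0.0801). In fresh-frozen tissue the controls lay at 124, 142 and 144 CPM (n = 6; lowest, median and highest) and the tumours at 121, 143 and 163 CPM (n = 6). The 6 frozen controls spanned a narrow range, and the tumours extended beyond it on both sides: 3 above every control and 2 below every control. The log2 fold change was 0.08 ± 0.15 (SE; 95% interval -0.24 to 0.41; adjusted p = 0.702), and its sign turned with RLE size factors, with DESeq2 and without dogs 60126, 60127, 60461 and 60462. These dogs gave the deepest fresh-frozen libraries, at 24458306 to 26726025 counts, against 9765907 to 19433146 in the other fresh-frozen libraries.

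Compared per exonic length, as CPM per kilobase of exon (FPKM), the receptor stood far above the ligand in every group. The lengths are the annotated ones, and neither their completeness nor the evenness of coverage along the transcripts was checked. IGF1R stood at 17.6 ± 5.07 FPKM in FFPE controls (SD, n = 10), 21.3 ± 6.11 in FFPE tumours (n = 11), 26.4 ± 1.66 in frozen controls (n = 6) and 27.3 ± 3.48 in frozen tumours (n = 6). IGF1 stood at 2.91 ± 1.58, 1.20 ± 0.842, 2.39 ± 0.990 and 0.871 ± 0.603 FPKM (SD) in the same order. Genes were ranked by FPKM within each library, among 26653 non-mitochondrial genes over 300 exonic bp with a count in any library. IGF1R had a median percentile of 84.4 to 88.5 and IGF1 of 49.9 to 58.4 across the 4 groups. That base keeps genes without a fragment in the library ranked, whereas 15714 genes passed the expression filter used for scaling. The order of the mean log2 CPM for IGF1 was FFPE control (2.75 ± 1.06, SD), frozen control (2.64 ± 0.61), FFPE tumour (1.41 ± 1.18) and frozen tumour (1.13 ± 0.85). The 2 control groups differed by less than their spread, as did the 2 tumour groups. For IGF1R the order of the mean log2 CPM was frozen tumour (7.14 ± 0.19), frozen control (7.10 ± 0.09), FFPE tumour (6.75 ± 0.38) and FFPE control (6.46 ± 0.45). The 2 frozen groups differed by less than their spread, as did the 2 FFPE groups, while the gap between frozen control and FFPE tumour was wider than the spread of the frozen controls and within that of the FFPE tumours.

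**Figure D2:**
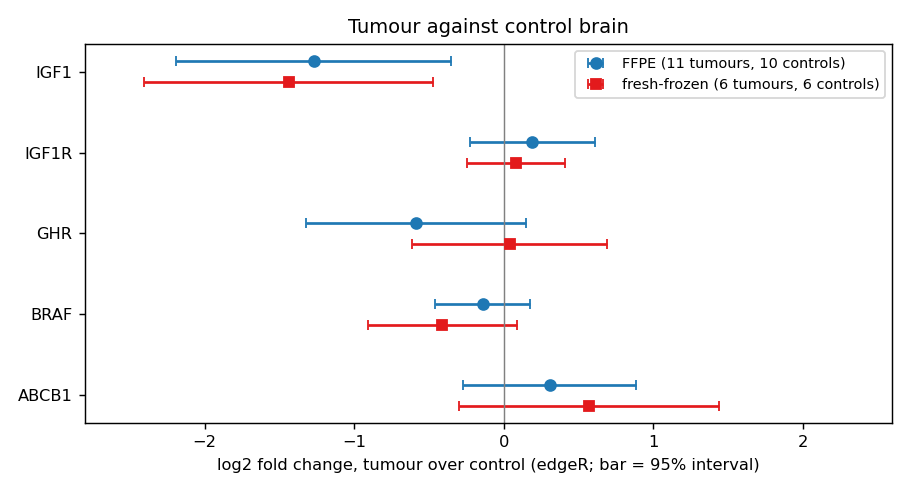
Log2 fold change of tumour against control for IGF1, IGF1R and the other genes found by position (points; bars are 95% intervals), FFPE and fresh-frozen fits shown separately. The IGF1 intervals lie below 0 in both fits (-2.19 to -0.35 and -2.40 to -0.47), and those of the other genes include 0.

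The ratio of receptor to ligand within a library does not depend on how libraries are scaled against each other. Per exonic length, IGF1R exceeded IGF1 by 5.51 times in the median FFPE control (2.05 to 52.9) and by 21.1 times in the median FFPE tumour (7.63 to 81.5). All 11 tumours lay above the control median, and 1 lay above every control. The highest control ratio, 52.9, was that of dog 45726, whose library held 3 IGF1 fragments. The difference in mean log2 ratio was 1.66 (two-sided permutation test, p = 0.00732, adjusted over the 2 preservations 0.0108). In fresh-frozen tissue the median ratio was 12.0 in controls (6.44 to 19.4) and 37.7 in tumours (14.4 to 97.5). Of 6 frozen tumours, 5 had a ratio above every control, dog 60636 again being the exception. The frozen difference in mean log2 ratio was 1.63 (two-sided exact permutation test, p = 0.0108, adjusted 0.0108). With each library left out in turn, the unadjusted permutation p of the ratio difference stayed under 0.05. The difference then ran from 1.46 to 1.99 in FFPE and from 1.35 to 1.90 in fresh-frozen tissue. Since IGF1R itself was not called, the ratio carries mainly the same IGF1 values and is not separate evidence.

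**Figure D3:**
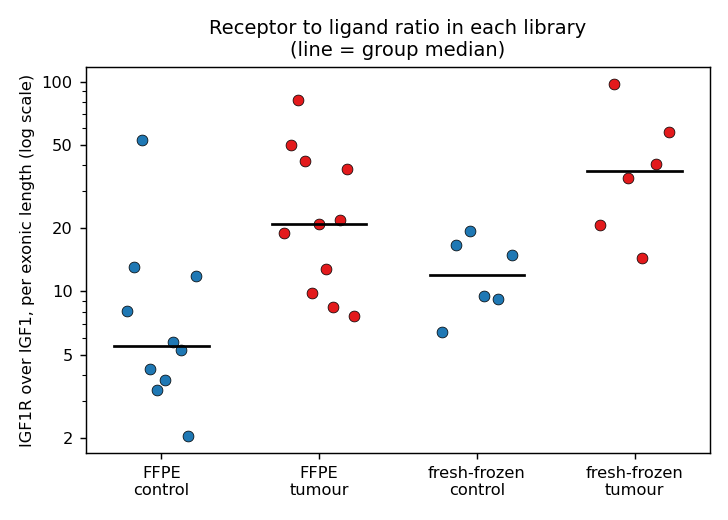
Ratio of IGF1R to IGF1 per exonic length in each library (log axis) by group; points are libraries and bars are medians. Median ratios were 5.51 and 21.1 in FFPE control and tumour, and 12.0 and 37.7 in frozen control and tumour.

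Ligand and receptor levels were compared across the libraries of each group. Pearson's r of log2 CPM was 0.307 in FFPE tumours (permutation p = 0.358, n = 11) and -0.411 in FFPE controls (permutation p = 0.241, n = 10). It was -0.366 in frozen tumours and 0.191 in frozen controls (exact permutation p = 0.479 and 0.597, n = 6 each). Spearman's rho was 0.409, -0.115, -0.657 and 0.086 in the same order (permutation p = 0.214, 0.759, 0.175 and 0.919). Adjusted over the 4 groups, every p for r was 0.597 and the lowest for rho was 0.428. Without the 2 libraries farthest from the median of IGF1, r became 0.155, 0.009, -0.76 and -0.006. No relation between the 2 transcripts was detectable within a group.

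The 8 dogs with both preservations allow FFPE and frozen tissue to be compared within the same animals. IGF1 was 10.2 CPM in FFPE and 10.4 CPM in frozen tissue of control dog 60126, 10.2 and 3.33 CPM in control 60460, and 12.3 and 7.79 CPM in control 60462. Among the tumours it was 6.05 and 3.04 CPM in dog 60127, 4.17 and 0.855 CPM in 60461, 7.47 and 5.39 CPM in 60636, 3.36 and 1.75 CPM in 60679, and 2.51 and 1.40 CPM in 60749. The FFPE level was the higher one in 7 of 8 dogs, with ratios of 0.976 to 4.88, the largest in tumour 60461. With tissue in the model, the log2 difference of FFPE from fresh-frozen was 0.77 ± 0.38 (SE; 95% interval -0.02 to 1.57) and was not called (adjusted p = 0.331). With the dog as a replicate block it was 0.88 (adjusted p = 0.0799). Of 16068 genes tested, 2.6% were called without the block, 2.5% higher and 0.0934% lower, which is 417 genes, and 756 were called with the block.

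IGF1R was not called in these dogs either. Its FFPE level was below the frozen level in 6 of 8 dogs, with ratios from 0.346 in control 60462 (49.2 against 142 CPM) to 1.17 in tumour 60749 (186 against 160 CPM). Control 60462 also had the shallowest FFPE library among the 8 dogs, with 1596967 counts. The log2 difference was -0.30 ± 0.20 (SE; 95% interval -0.71 to 0.11; adjusted p = 0.478), and -0.40 with the replicate block (adjusted p = 0.236). Of the alternatives run, 1 called it: when tissue was a covariate and all 33 libraries entered, with 8 of the 25 dogs on both sides, the difference was -0.45 (adjusted p = 0.0103), and 4962 genes were then called.

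**Figure D4:**
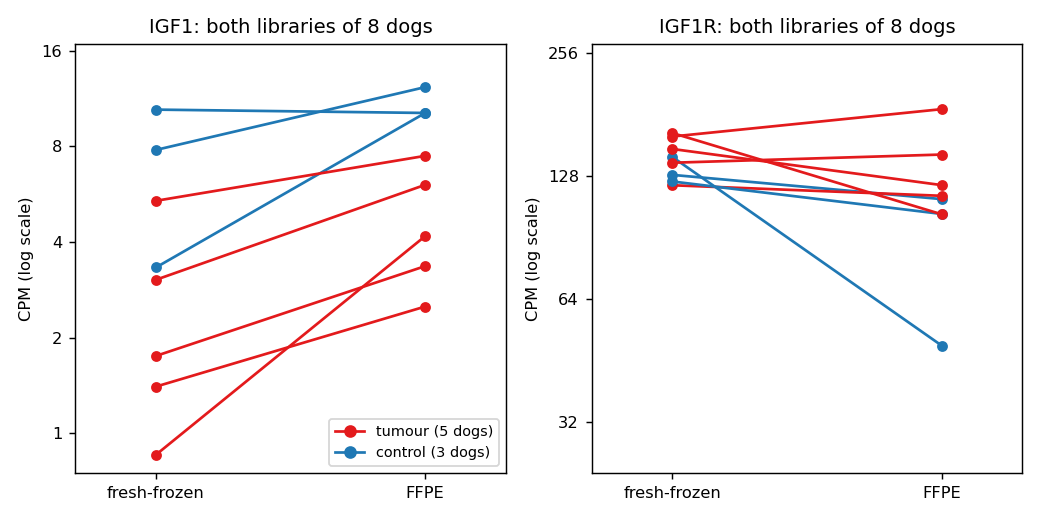
IGF1 (left) and IGF1R (right) in fresh-frozen and FFPE tissue of the same 8 dogs (CPM, log axis); each line joins the 2 libraries of a dog. IGF1 is higher in FFPE tissue in 7 of 8 dogs and IGF1R is lower in 6 of 8.

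Whether the tumour effect differed between preservations was tested directly, in all 33 libraries. This fit held no term for the dog, although 8 dogs gave a library of each preservation. The tumour effect in FFPE minus that in fresh-frozen tissue was 0.25 ± 0.67 on the log2 scale for IGF1 (SE; 95% interval -1.11 to 1.61) and 0.23 ± 0.28 for IGF1R (95% interval -0.33 to 0.79), both with an adjusted p of 0.9999. The share of genes called was 0% of 15714 by edgeR, with 575 at an unadjusted p under 0.05, 7 called by DESeq2 and 2 by limma voom. With the dog as a random effect in limma voom, the difference was 0.40 ± 0.52 for IGF1 and 0.34 ± 0.23 for IGF1R (SE). With the dog as a block in the 8 shared dogs it was 0.36 ± 0.60 and 0.50 ± 0.43 (SE). Neither of these fits called either gene. The IGF1 interval from the fit without a dog term is wide enough to hold differences of more than 1 log2 unit in either direction.

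Boxers are larger dogs than French Bulldogs, and the 2 breeds supplied most FFPE libraries. IGF1 in controls ran from 4.22 to 14.8 CPM in Boxers (median 6.86, n = 4) and from 1.12 to 12.3 CPM in French Bulldogs (median 8.97, n = 5). The value of 14.8 CPM, from dog 50315, rested on 5 fragments. In tumours it ran from 0.382 to 5.38 CPM in Boxers (median 3.50, n = 4) and from 0.932 to 7.47 CPM in French Bulldogs (median 2.13, n = 6). The tumour median lay under the control median within each breed, and the breeds overlapped within each tissue. With tissue in the model, French Bulldogs differed from Boxers by -0.16 ± 0.50 log2 units in IGF1 (SE; 95% interval -1.20 to 0.88; adjusted p = 0.9996).

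IGF1R in controls had medians of 86.1 CPM in Boxers (59.0 to 115, n = 4) and 97.3 CPM in French Bulldogs (49.2 to 132, n = 5). In tumours the medians were 96.0 CPM (80.7 to 113, n = 4) and 109 CPM (75.9 to 186, n = 6). The breeds overlapped here too, and the breed difference with tissue in the model was 0.17 ± 0.23 log2 units (SE; 95% interval -0.30 to 0.64; adjusted p = 0.9996). Within tumours alone the breed difference was -0.21 ± 0.73 for IGF1 and 0.29 ± 0.30 for IGF1R (SE). Within controls alone it was -0.07 ± 0.68 and 0.03 ± 0.36.

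The tumour effect in French Bulldogs minus that in Boxers was -0.09 ± 1.02 log2 units for IGF1 (95% interval -2.20 to 2.01) and 0.27 ± 0.46 for IGF1R (-0.69 to 1.24). In all 4 breed comparisons edgeR called 0% of genes, out of 14107, 13873, 12975 and 14760 tested, with 604, 283, 424 and 289 at an unadjusted p under 0.05. DESeq2 called 6, 0, 3 and 0, and limma voom 1, 0, 1 and 0. The sign of the breed difference in IGF1 turned under several settings. Stated ages were few in controls (1 Boxer and 3 French Bulldogs) and the 1 Boxer control with an age was 2 years old, against 7 to 12 years in 3 Boxer tumours, so breed, age and tissue cannot be fully told apart.

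Age itself could be set against the 2 transcripts in the 9 FFPE tumours whose own labels state it. Dog 60461 has an age, 8.8 years, in its fresh-frozen labels only, and its FFPE library was left out here. Pearson's r with log2 CPM was 0.231 for IGF1 (exact permutation p = 0.546, adjusted over the 2 genes 0.973) and -0.013 for IGF1R (exact permutation p = 0.973, adjusted 0.973). Spearman's rho was 0.167 and -0.033 (exact permutation p = 0.678 and 0.948, both adjusted 0.948). Without the 2 ages farthest from the median r was 0.555 and 0.677 over 7 dogs, so the coefficients rest on those 2 dogs. In the tumour comparison, adding age among the libraries that state it gave IGF1 a log2 fold change of -1.85 (adjusted p = 0.2) in FFPE and -1.27 (adjusted p = 0.114) in fresh-frozen tissue.

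Other genes of the axis were sought by position and named only where the exon number was near the usual one. On the other assembly RefSeq gives GHR 139700 bp against 268222 bp here, and BRAF 172337 bp against 95000 bp. These names are therefore less certain than those of the members. GHR, the growth hormone receptor through which growth hormone raises IGF1, was found on chromosome 4 from 67022252 to 67290473 (13 merged exons). With 10 exons usual, GHR lay at the limit of the 3 exons allowed. Its median level was 8.85 CPM in FFPE controls, 5.34 in FFPE tumours, 8.04 in frozen controls and 7.88 in frozen tumours. The log2 fold change of tumour against control was -0.59 ± 0.36 in FFPE (SE; adjusted p = 0.237) and 0.04 ± 0.30 in fresh-frozen tissue (adjusted p = 0.931). BRAF, a kinase of the MAPK pathway below growth factor receptors, was found on chromosome 16 with 20 merged exons. BRAF gave -0.14 ± 0.16 in FFPE (adjusted p = 0.531) and -0.41 ± 0.23 in fresh-frozen tissue (adjusted p = 0.185), and another annotated gene overlaps it. Of the 2 named axis genes, 0 were called in either preservation, against 21.1% and 30.5% of all genes tested. HMGA2, another body size gene, was not analysed here, as the position used to seek it lay in no gene of the table.

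Of the markers of blood vessel endothelium, which is known to carry IGF1R, only ABCB1 could be named. VWF was not analysed here. The ABCB1 span was 200081 bp here against 97409 bp in RefSeq on the other assembly, so that name is less certain too. ABCB1, the efflux pump of the blood-brain barrier, had medians of 21.6 CPM in FFPE controls, 27.3 in FFPE tumours, 25.2 in frozen controls and 32.6 in frozen tumours. Its log2 fold change was 0.31 ± 0.28 in FFPE (SE; adjusted p = 0.446) and 0.57 ± 0.40 in fresh-frozen tissue (adjusted p = 0.291), with 2 other annotated genes overlapping it. Its part in the IGF1 result was not tested.

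The genes around each locus show whether IGF1 moved with its surroundings. Within 1 Mb of IGF1 lie 23 annotated genes, of which 9 were tested in FFPE and 10 in fresh-frozen tissue. In FFPE 1 of these 9 was called higher and 0 lower. Their log2 fold changes had a median of 0.37 and a range of -1.09 to 2.91, so that IGF1 at -1.27 lay below all of them. In fresh-frozen tissue 3 of 10 were called higher and 1 lower. Their log2 fold changes ran from -1.95 to 3.90 around a median of 0.52, and IGF1 was second lowest. The gene called higher in both lies 418475 bp upstream of IGF1 (ENSCAFG00000007324, chromosome 15, 41694269 to 41695391, plus strand), at 2.91 in FFPE (adjusted p = 0.00127) and 3.90 in fresh-frozen tissue (adjusted p = 0.000623). The gene called lower lies 588540 bp downstream (ENSCAFG00000007134), at -1.95 in fresh-frozen tissue (adjusted p = 0.0132) and -1.09 in FFPE (adjusted p = 0.131). These neighbours were singled out after their values were seen. Over chromosome 15, FFPE calls were 30 higher and 33 lower of 348 tested, beside 21.1% of all genes called in either direction. The chromosome 15 median log2 fold change in FFPE was 0.02. In fresh-frozen tissue 69 of 394 were called higher and 51 lower, beside 30.5% of all genes called in either direction.

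Within 1 Mb of IGF1R lie 17 annotated genes, of which 7 were tested in FFPE and 8 in fresh-frozen tissue. In FFPE 2 were called higher and 1 lower, and their median log2 fold change was 0.31. In fresh-frozen tissue 1 was called higher and 1 lower, and the median was -0.34. The same gene 170996 bp upstream of IGF1R (ENSCAFG00000010852) was the one called lower in both, at -0.92 (adjusted p = 0.0138) and -1.09 (adjusted p = 0.00967). The gene 562341 bp downstream (ENSCAFG00000010896) was called higher in both, at 1.18 (adjusted p = 0.0256) and 1.31 (adjusted p = 0.00729). IGF1R itself lay near 0, between neighbours called in opposite directions, and these 2 neighbours too were singled out after their values were seen. Over chromosome 3 the calls in FFPE were 37 higher and 48 lower of 380 tested, beside 21.1% of all genes called. In fresh-frozen tissue they were 68 higher and 73 lower of 433, beside 30.5% of all genes called.

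**Figure D5:**
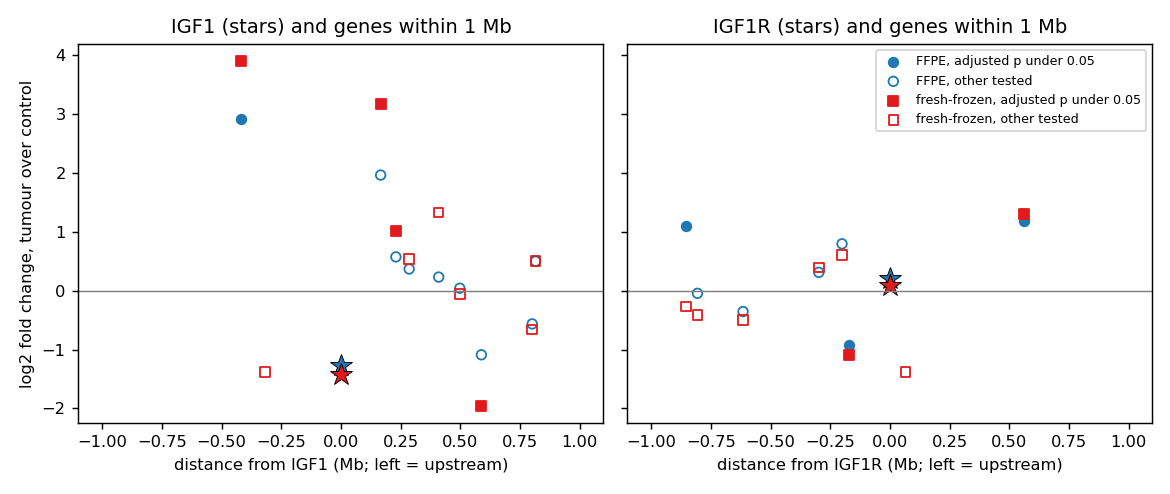
Log2 fold change of tumour against control for tested genes within 1 Mb of IGF1 and of IGF1R, by distance from the locus, in FFPE and fresh-frozen fits. IGF1 is the lowest point of its window in FFPE (-1.27) and second lowest in fresh-frozen tissue (-1.44), while IGF1R lies near 0.

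The genes most like each member were those with the highest Pearson correlation of deviations from the 4 group means of log2 CPM over the 33 libraries, among 13723 genes. This is a description: libraries of the same dog, their depth and their RNA quality are shared by all genes. For IGF1 they were ENSCAFG00000006655 (chromosome 26, 1257415 to 1377394, 25 exons, r = 0.703) and ENSCAFG00000018423 (chromosome 4, 62170452 to 62268983, 31 exons, r = 0.700). The correlation was 0.741 and 0.764 among FFPE libraries and 0.513 and 0.403 among frozen ones. For IGF1R they were ENSCAFG00000047413 (chromosome 17, 476308 to 480435, 6 exons, r = 0.689) and ENSCAFG00000007317 (chromosome 20, 32144957 to 32146974, 2 exons, r = 0.662). Here the correlation was 0.759 and 0.682 among FFPE libraries and 0.139 and 0.414 among frozen ones, so the likeness rested mainly on FFPE tissue. The tumour changes of these 4 genes, where tested, were not called in either preservation.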

How the data were processed

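The deposited values are raw counts of fragments per gene made by the authors with featureCounts 1.6.0 on Ensembl release 100 models of CanFam3.1, with strand option 1 and mapping quality 10, per the file headers. Per the labels' protocols, libraries carried molecular identifiers of 12 nt. Whether duplicates were removed with them is not stated in the labels or headers, nor are versions of fastp and STAR, which the submitters' processing notes name. Intervals on counts therefore cover counting error only. The table held 0 entries without a gene identifier.

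From the counts, edgeR 4.0.16 (filterByExpr, TMM, quasi-likelihood, robust) in R 4.3.3 was fitted over all genes, with Benjamini-Hochberg adjustment at 0.05. Permutation tests of ratios and correlations were run with numpy 2.4.6, and ranks for Spearman's rho came from scipy 1.17.1. CPM, FPKM and log2 CPM (prior count 2) were computed here. Alternatives were RLE size factors, DESeq2 1.42.0, limma 3.58.1 (voom with quality weights), other filters, covariates, subsets of dogs and leaving out each library. The scripts were tested on simulated data.

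Members, lists and tests were chosen with earlier results of these data known. Named genes are the members, axis genes whose exon number lay within 3 of the usual one (a tolerance set after seeing the files), and the 2 genes most like each member. The 8 dogs with both preservations are the same animals by their numbers in the labels. Deviations of their libraries correlated at 0.077 to 0.784, above 0.1 in 7 of 8. Libraries of different dogs were not correlated for comparison, so these values do not test the identity of the animals. Separate dogs are replicates, and no 2 libraries of a group agreed within sampling noise (lowest chi-square per degree of freedom over all pairs 19.1). No sequences are given.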

Additional observations from a re-analysis of the deposited data

How the results depend on the processing

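IGF1 stayed lower in tumour in every fit run, and its call did not. In FFPE it was kept with RLE size factors (-1.26), DESeq2 (-1.26) and limma voom (-0.9997). It was lost with no filter (-1.21), without mitochondrial genes (-1.22), with breed (-1.22) or age (-1.85) as a covariate, in the 8 shared dogs only (-1.26), without them (-1.64), without grade II tumours (-1.17) and without the 3 libraries of at most 1752162 counts (-0.98). Adjusted p ran from 0.0186 to 0.246 over these, and leaving out 1 library gave -1.43 to -1.14. Under the filter of at least 10 counts IGF1 was not tested in FFPE tissue. In fresh-frozen tissue the call was kept in 7 of 10 alternatives and lost with age (-1.27), in the 8 shared dogs (-1.53) and without dogs 60126, 60127, 60461 and 60462 (-1.06), and leave-one-out gave -1.91 to -1.25. The cause of these losses was not tested; the subsets hold fewer libraries.

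IGF1R changed sign in FFPE without the 8 shared dogs (-0.0801) and in fresh-frozen tissue with RLE (-0.0029), DESeq2 (-0.0030), without the 4 named dogs (-0.0151) and within the leave-one-out range (-0.0310 to 0.1273). Breed differences also changed sign. For IGF1 this was so in tumours with limma voom (0.0799), in controls without the shallow libraries (0.0338) and in the breed effect on the tumour change with limma voom (0.35). For IGF1R it was so in that last effect with limma voom (-0.14) and without the shallow libraries (-0.0131). Leave-one-out ranges for IGF1 were -0.4363 to 0.0119 across FFPE tissue, -0.33 to 0.24 in controls, -0.77 to 0.16 in tumours and -0.63 to 0.25 for the breed effect on the tumour change; for IGF1R in controls the range was -0.17 to 0.21.

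In the same 8 dogs the replicate block gave 756 called genes against 417 without it, and the block changed no call for IGF1 (0.88) or IGF1R (-0.40). DESeq2 called 885, the filter of at least 10 counts 70, all 33 libraries 4962 (with IGF1R at -0.45 and called), and leave-one-out 251 to 786. In FFPE tumour against control the count was 2819, and became 5054 with limma voom, 1407 with the strict filter, 115 with age, 1 in the 8 shared dogs, 1250 without them and 2139 to 3385 on leave-one-out. In fresh-frozen tissue it was 4597, and became 560 with age, 391 in the shared dogs, 2291 without the 4 dogs and 3129 to 5014 on leave-one-out. For the difference in tumour effect between preservations DESeq2 called 7 and limma voom 2. For breed in FFPE tissue DESeq2 called 6, limma voom 1, the deeper libraries 1 and leave-one-out 0 to 1; in controls DESeq2 called 3, limma voom 1, no filter 2 and leave-one-out 0 to 1. Low FFPE totals limit the precision of IGF1, which had 1 to 66 fragments in tumours and 3 to 295 in controls.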
